A study of Mus musculus with 69 samples.

Results

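The transcript levels of 10 immediate early response genes, Fos, Fosb, Junb, Egr1, Atf3, Ier2, Ier3, Dusp1, Nr4a1 and Zfp36, were followed in mouse lung after exposure to nano-TiO2. The genes were picked by name, with earlier results of these data known. All 10 were matched through the RefSeq symbol of their probes, among 18660 genes tested. Immediate early genes are transcribed within minutes of a growth factor, stress or calcium signal without new protein synthesis, mainly through factors already bound at their promoters, and their mRNAs are short-lived. Many of them encode transcription factors, and others encode inhibitors that shut the same signal down, so that the response is normally brief. In lung they are known to respond to inhaled particles, mechanical stretch and inflammation, and also to the handling of an animal or tissue at collection.

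The mice were female C57BL/6, 5 to 7 weeks old on arrival, kept for 1 to 3 weeks before exposure, with no transgene in any group. Each mouse received 1 intratracheal instillation of NRCWE-025 or NRCWE-030, which are nano-TiO2 materials, or of vehicle alone. The doses were 18, 54 or 162 µg in the vehicle, water containing 2% serum. Lung was taken on day 1 or day 28, and RNA came from a section of it. The 69 arrays, each with Cy5-labelled RNA of 1 mouse against Cy3-labelled Universal Mouse Reference RNA and no dye swap, made 14 groups of material, dose and day. Of these groups 13 had 5 arrays, NRCWE-025 at 162 µg on day 28 had 4, and the 5 vehicle mice of a day served both materials. All values are log2 of lung over reference for a gene, so that a level below 0 means less transcript in lung RNA than in the reference pool.

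Cy5 signal cleared background at 49.1% to 72.8% of spots (median 62.1%), and the 69 arrays lay on 19 slides scanned over 11 days. All 9 lung epithelium markers and all 5 endothelium markers were well above background on all 69 arrays, with mean levels over each list of 5.12 to 6.03 and of 4.82 to 5.74. Heart muscle markers ranged from 0.14 to 4.94 and fat markers from 0.65 to 5.19 between arrays. In RNA of lung tissue, fewer cells of a type and less RNA per cell cannot be told apart. One array stood apart. In replicate 5 of NRCWE-030 at 18 µg on day 28, the scanner file and the deposited table of processed values did not match. After each gene was centred over the arrays, they correlated at 0.231, against a median of 0.992 and a next lowest value of 0.943. The other 68 arrays each matched their own column best. In that array Dusp1 read 1.61 from the scanner and 2.66 in the table, and Nr4a1 read -0.13 and 0.88, whereas on the other arrays no member differed by more than 0.33. For this group, the dose F-test and the 18 µg differences of the members are given with and without it. So are the correlation of the closest pair of members and the median over pairs. Other results of this group include it unless stated.

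All 10 genes had a probe well above background in Cy5 on 69 of 69 arrays, and 12 probes represented them. The Fos probe was printed as 10 spots, which differed within an array by a median SD of 0.07 (range 0.03 to 0.27). The spread of Fos between mice of a group was 0.46. The 2 Junb probes varied together over arrays (r = 0.916, group means removed). Zfp36 also had 2 probes, but the second was well above background on 6 arrays and did not follow the first (r = -0.00103). Because the level of a gene is the median over its probes, the Zfp36 values below are damped, and group means of its bright probe are given beside them.

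As background to genes that vary together, the 250 bases before the RefSeq start (GRCm38.p6) were read for the 8 members that the promoter table holds. Short motifs were sought on both strands: the cAMP response element TGACGTCA bound by CREB, its half-site TGACG, which lies within the full element, the AP-1 site TGACTCA of Fos and Jun proteins, the TATA box TATAAA, the GC box GGGCGG and the CArG box of serum response factor. The promoters of Nr4a1 and Dusp1, which passed the dose test below, of Fos, which gave AP-1 its best known subunit, and of Ier3, which varied least with the other members, are printed 5′ to 3′ on the strand of the gene, with every motif match in capitals.
Fos, chr12:85473640-85473889, + strand: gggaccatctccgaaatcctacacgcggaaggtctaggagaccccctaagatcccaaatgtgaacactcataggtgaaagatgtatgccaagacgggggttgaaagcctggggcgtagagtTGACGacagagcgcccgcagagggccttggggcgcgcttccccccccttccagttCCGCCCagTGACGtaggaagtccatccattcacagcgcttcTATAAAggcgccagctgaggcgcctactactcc
Nr4a1, chr15:101266596-101266845, + strand: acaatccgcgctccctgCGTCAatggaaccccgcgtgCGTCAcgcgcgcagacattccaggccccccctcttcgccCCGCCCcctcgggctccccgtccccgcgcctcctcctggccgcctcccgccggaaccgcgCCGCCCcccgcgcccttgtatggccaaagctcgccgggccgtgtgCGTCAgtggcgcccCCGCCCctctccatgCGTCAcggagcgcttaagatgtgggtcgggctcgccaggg
Dusp1, chr17:26508473-26508722, - strand: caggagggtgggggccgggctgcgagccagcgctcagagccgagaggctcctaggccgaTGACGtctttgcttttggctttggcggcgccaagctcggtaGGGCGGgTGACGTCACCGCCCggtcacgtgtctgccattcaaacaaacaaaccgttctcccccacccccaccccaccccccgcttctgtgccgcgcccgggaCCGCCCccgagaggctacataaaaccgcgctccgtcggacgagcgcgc
Ier3, chr17:35821463-35821712, + strand: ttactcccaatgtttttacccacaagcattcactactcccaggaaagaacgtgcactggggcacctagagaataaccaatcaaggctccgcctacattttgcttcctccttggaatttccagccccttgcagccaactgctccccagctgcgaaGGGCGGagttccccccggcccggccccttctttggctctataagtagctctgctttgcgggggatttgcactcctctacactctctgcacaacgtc

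A TGACG half-site was present in 6 of 8 members (Fos, Fosb, Junb, Atf3, Nr4a1 and Dusp1), compared with 17.9% of 27025 promoters of the same length. Dusp1 alone of the 8 held the full cAMP response element, which 1.62% of promoters held. The Nr4a1 window had 4 half-sites, all on the opposite strand, and Fos had 2, with a TATA box from 33 to 28 bases before its start. Ier3 held 1 GC box and none of the other motifs spelled here. A GC box was found in 7 of 8 members (32.9% of promoters), a TATAAA in 1 (13%), a CArG box in 1, Zfp36 (1.4%), and an AP-1 site in 0 of 8 (4.43%). These are matches of letters in a short window only.

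The question the design puts to these genes is whether their level depends on dose, 1 or 28 days after a single exposure. Dose was tested by an F-test over vehicle and 3 doses for each material and day in limma, with Benjamini-Hochberg adjustment over all 18660 genes and an adjusted p-value under 0.05 as the threshold. For NRCWE-030 on day 1, 3 of the 10 genes changed with dose: Egr1, Nr4a1 and Dusp1. All 3 were highest at the lowest dose, 18 µg, and close to vehicle at 54 and 162 µg. Of all genes, 0.954% passed in this comparison. For NRCWE-030 on day 28 (0.102% of all genes), NRCWE-025 on day 1 (0.0214%) and NRCWE-025 on day 28 (0.0268%), the limma F-test called 0 members. The numbers at an unadjusted p-value under 0.05 were 7 for NRCWE-030 on day 1, 7 on day 28, 4 for NRCWE-025 on day 1 and 2 on day 28. Of all 18660 genes, 2092, 1318, 1861 and 1076 had such a p-value in these comparisons. With 5 mice in a group, each p-value weighs differences between group means against the spread between mice, which were separate animals.

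Egr1 encodes a zinc finger transcription factor induced through serum response factor. For NRCWE-030 on day 1, its levels in the vehicle mice were -2.52, -2.57, -2.08, -1.88 and -2.66, and at 18 µg they were -0.18, -1.07, -1.52, -1.24 and -0.99. At 54 µg they were -2.11, -2.96, -2.01, -2.06 and -2.52, and at 162 µg they were -2.37, -2.78, -1.79, -1.89 and -1.72. All 5 mice at 18 µg lay above every mouse of the other groups, which overlapped among themselves. The difference from vehicle was 1.34 (SE 0.25) at 18 µg, 0.01 at 54 µg and 0.23 at 162 µg (dose effect adjusted p = 0.0168).

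Nr4a1 encodes the orphan nuclear receptor Nur77. In the same vehicle mice its levels were -0.86, -0.83, -0.25, -0.36 and -0.51, and at 18 µg they were 1.54, 0.80, -0.24, 0.75 and 1.67. Replicate 3 of the 18 µg group was thus only just above the highest vehicle mouse, while the other 4 were well above it. At 54 µg the levels were -0.20, -0.49, -0.29, -0.30 and -0.52, and at 162 µg they were -0.53, -0.59, -0.10, 0.48 and -0.01. The difference from vehicle was 1.47 (SE 0.27) at 18 µg, 0.20 at 54 µg and 0.41 at 162 µg (dose effect adjusted p = 0.0243).

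Dusp1 encodes a phosphatase that inactivates the MAP kinases p38 and JNK and so limits the signal that induces it. Its vehicle levels were 1.54, 1.30, 2.42, 1.66 and 0.68, compared with 2.56, 2.62, 2.83, 2.71 and 3.21 at 18 µg. It read 1.78, 1.40, 1.80, 2.21 and 1.66 at 54 µg, and 2.17, 2.24, 1.27, 1.63 and 2.14 at 162 µg. The 18 µg mice did not overlap with any of the other 3 groups. The difference from vehicle was 1.26 (SE 0.25) at 18 µg, 0.25 at 54 µg and 0.37 at 162 µg (dose effect adjusted p = 0.0444).

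**Figure D1:**
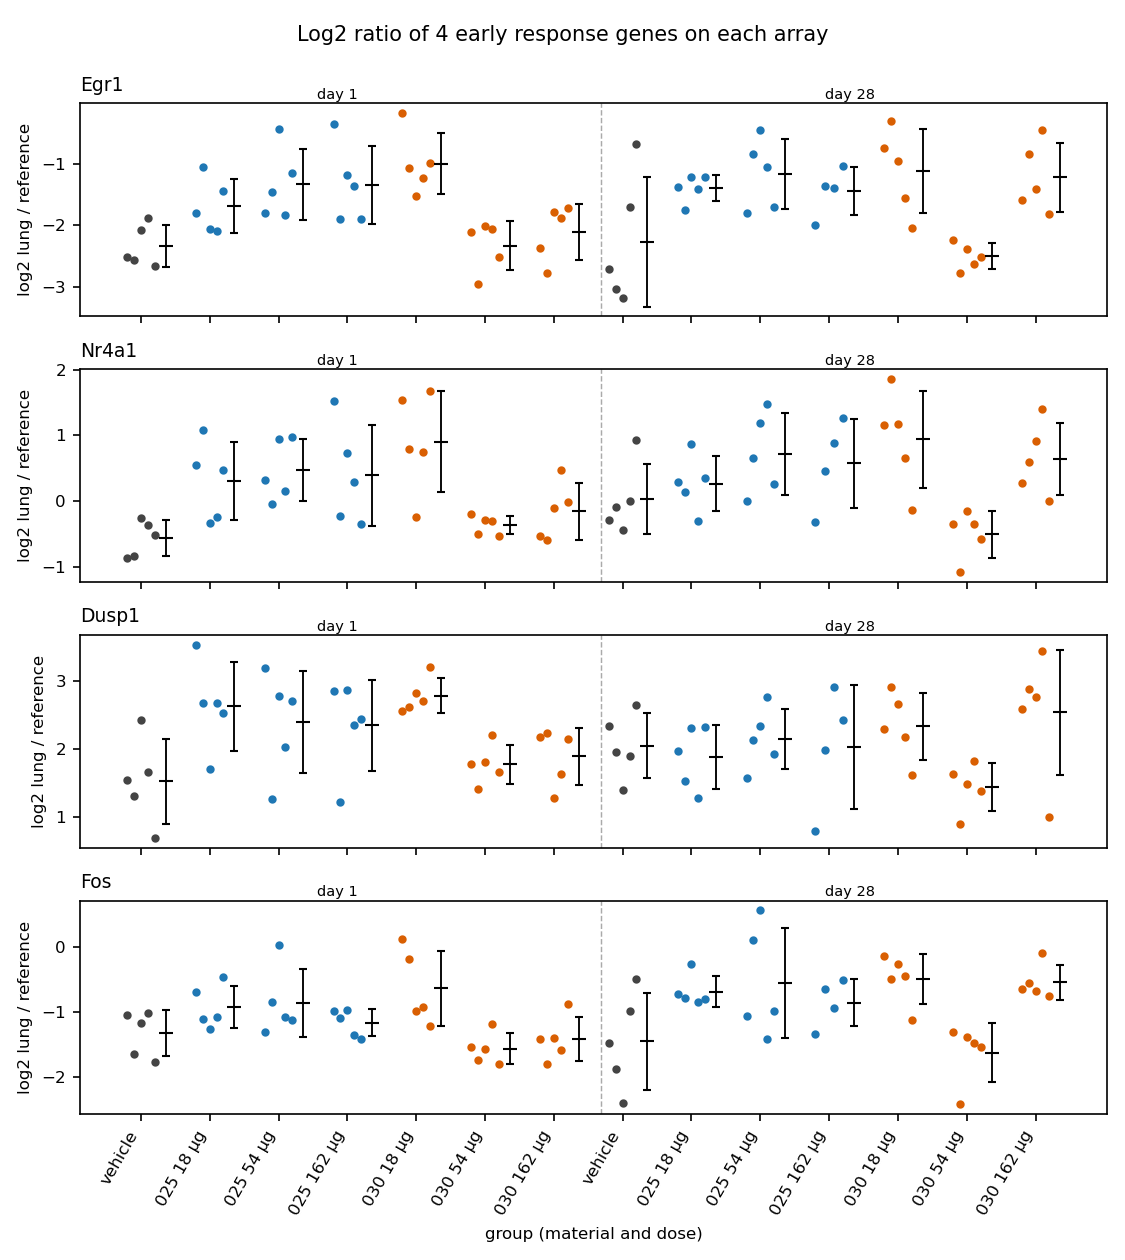
Log2 lung over reference of Egr1, Nr4a1, Dusp1 and Fos (vertical axes) on each array, in the 14 groups of material, dose and day (horizontal axis). Each point is 1 mouse, and the bar beside a group is its mean ± SD. For NRCWE-030 at 18 µg on day 1 the Egr1 levels, -1.52 to -0.18, lie above every vehicle, 54 µg and 162 µg mouse of that day.

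The calls depended on which arrays and terms entered the fit. Egr1 passed in all 20 fits that left out 1 mouse each (adjusted p 0.0109 to 0.042). Nr4a1 passed in 16 of 20, and not without vehicle replicate 2 (0.0506) or without 18 µg replicate 1 (0.068), 4 (0.0527) or 5 (0.0682). Dusp1 passed in 4 of 20 (adjusted p 0.00929 to 0.104), namely without vehicle replicate 3 or 5, 54 µg replicate 4 or 162 µg replicate 3. With slide as a fixed block, the 18 µg difference was 1.28 for Egr1 (dose effect adjusted p = 0.185), 1.20 for Nr4a1 (0.191) and 1.51 for Dusp1 (0.0307). With scan day as a fixed block it was 1.32 (0.182), 1.35 (0.221) and 1.55 (0.0217). A vehicle and an 18 µg mouse shared a slide in 2 cases, in which the 18 µg mouse read higher by 1.70 and 1.14 for Egr1, 1.90 and 0.27 for Nr4a1, and 0.90 and 2.15 for Dusp1.

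Each dose of NRCWE-030 on day 1 was also compared with vehicle alone, and limma called 0 members at 18 µg (0.00536% of all genes), at 54 µg (0.0804%) and at 162 µg (1.69%). At an unadjusted p-value under 0.05 there were 7, 0 and 1 members. The smallest adjusted p for a member was 0.16 at 18 µg, for Egr1 and Nr4a1. Over the 10 genes the median difference was 0.58 at 18 µg with 9 higher, 0.13 at 54 µg with 8 higher, and 0.27 at 162 µg with 8 higher, against a median over all genes of 0, -0.01 and 0. The 5 vehicle mice enter every one of these differences. To set the doses beside each other without vehicle, a comparison chosen after the values had been seen, 18 µg was compared with the higher doses. Egr1 was higher at 18 than at 162 µg by 1.11 (SE 0.25, adjusted p = 0.0378), the 1 member called (1.03% of all genes), followed by Nr4a1 at 1.05 (0.0688) and Dusp1 at 0.89 (0.0997). Against 54 µg, limma called 0 members (0.0107% of all genes) and 6 had an unadjusted p under 0.05, with Egr1 at 1.33 (adjusted p = 0.102).

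The other 7 genes did not pass for NRCWE-030 on day 1. Fos, the partner of Jun proteins in AP-1, read 0.12, -0.18, -0.99, -0.92 and -1.22 at 18 µg and -1.04, -1.65, -1.17, -1.01 and -1.76 in vehicle, a difference of 0.69 (SE 0.23), with 4 of 5 mice above the highest vehicle mouse (dose effect adjusted p = 0.137). Ier2, a nuclear protein of the early response, differed by 0.64 (SE 0.15, adjusted p = 0.128) with levels of -0.65, -1.24, -1.41, -0.92 and -0.63 against -1.69, -1.79, -1.66, -1.56 and -1.35. Both genes were shifted upward in the same 5 mice at 18 µg, each with 1 mouse inside the vehicle range. That mouse was not the same for the 2 genes (-1.22 for Fos, -1.41 for Ier2). Atf3, a stress-induced repressor of the ATF/CREB family, differed by 0.53 at 18 µg, 0.30 at 54 µg and 0.50 at 162 µg (adjusted p = 0.359), and at 162 µg all 5 mice lay above the vehicle range. Zfp36, which binds AU-rich mRNAs and hastens their decay, differed by 0.34 at 18 µg (SE 0.09, adjusted p = 0.199), where its bright probe read 0.70 ± 0.21 (SD, n = 5) against 0.00 ± 0.22 in vehicle. Fosb, a second Fos family protein, differed by 0.17 (adjusted p = 0.949). Junb and Ier3 each held a split 18 µg group. The Junb levels were 0.71, 0.44, -1.67, -0.53 and -0.33, and those of Ier3, a regulator of survival, were 0.31, 0.29, -1.54, -0.42 and -0.54, so that replicate 3 was lowest for both. The group differed from vehicle by 0.38 for Junb (dose effect adjusted p = 0.872) and by -0.27 for Ier3 (0.92).

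**Figure D2:**
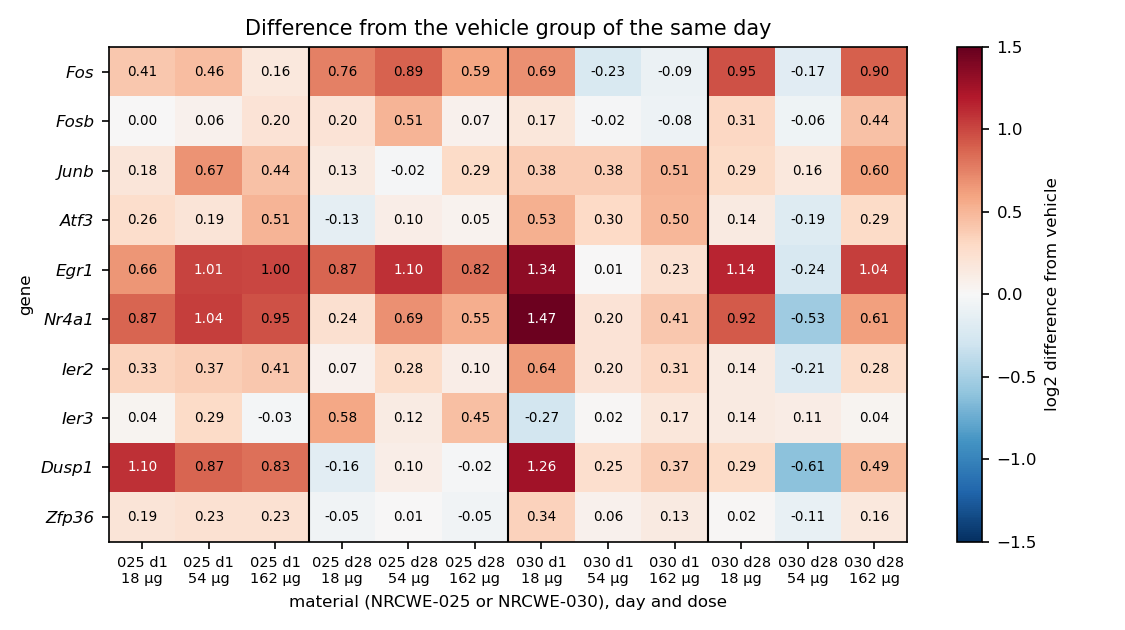
Log2 difference from the vehicle group of the same day for each of the 10 genes (down the side) at each material, day and dose (columns), printed in each cell. Red is higher and blue lower than vehicle. The NRCWE-030 columns alternate on day 28, with Egr1 at 1.14, -0.24 and 1.04 for 18, 54 and 162 µg. Both materials share the 5 vehicle mice of a day.

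On day 28 the same material gave high levels at 18 and 162 µg and low levels at 54 µg, but no member passed. Fos read -0.14, -0.50, -0.26, -0.44 and -1.13 at 18 µg, -1.31, -2.41, -1.38, -1.48 and -1.53 at 54 µg, and -0.65, -0.56, -0.68, -0.09 and -0.75 at 162 µg. The 54 µg mice were below every mouse of the other doses, but the vehicle mice, at -1.48, -1.88, -2.40, -0.99 and -0.49, spanned nearly the whole range. The differences from vehicle were 0.95, -0.17 and 0.90 (SE 0.28, dose effect adjusted p = 0.187).

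Egr1 showed a wide vehicle group too, at -2.72, -3.04, -3.19, -1.71 and -0.69. Its levels were -0.74, -0.31, -0.96, -1.56 and -2.04 at 18 µg, -2.24, -2.78, -2.38, -2.63 and -2.51 at 54 µg, and -1.60, -0.85, -1.41, -0.45 and -1.82 at 162 µg. The 54 µg mice again lay below both other doses, and inside the vehicle range (dose effect adjusted p = 0.344). Nr4a1 read -0.28, -0.08, -0.43, 0.01 and 0.93 in vehicle, 1.16, 1.86, 1.17, 0.66 and -0.13 at 18 µg, -0.35, -1.08, -0.15, -0.34 and -0.57 at 54 µg, and 0.28, 0.60, 0.91, 1.40 and 0.00 at 162 µg (adjusted p = 0.221). The lowest Nr4a1 and Egr1 values at 18 µg both came from replicate 5, the array whose files did not match.

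Without that array, Nr4a1 passed (dose effect adjusted p = 0.0358, with differences of 1.19, -0.53 and 0.61 at 18, 54 and 162 µg), as 1 member among 0.3% of all genes. Fos was then at 0.0736, Ier2 at 0.06, Junb at 0.0906 and Egr1 at 0.182, with 18 µg differences of 1.11 for Fos and 1.37 for Egr1. Against vehicle at 18 µg, the smallest adjusted p of a member was then 0.0652, for Junb. These fits are not separate from that removal: Nr4a1 passed on the deposited processed values (0.0362), which hold another measurement for that array, and with slide as a fixed block (0.0412), where that array is alone on its slide and adds nothing. Nr4a1 and Fos both passed with slide as a random block (smaller adjusted p = 0.032). With all arrays kept, limma called 0 members against vehicle alone at 18 µg (0.118% of all genes), 54 µg (0.0536%) and 162 µg (0.0965%). At an unadjusted p under 0.05 there were 4, 0 and 4 members. The median difference over the members was 0.29 with 10 of 10 higher, -0.18 with 2 higher, and 0.46 with 10 higher, with 0 as the median over all genes each time. Set directly against 54 µg, again a comparison chosen after the values had been seen, 18 µg gave 0 called members (0% of all genes) and 7 at an unadjusted p under 0.05, and 162 µg gave 0 (0%) and 8. The largest of these differences were 1.44 for Nr4a1 and 1.38 for Egr1 between 18 and 54 µg.

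The remaining members had smaller spans on day 28 of NRCWE-030. Dusp1 differed from vehicle by 0.29, -0.61 and 0.49 at 18, 54 and 162 µg (adjusted p = 0.587), and its 162 µg group held a single low mouse, 1.00, beside 2.59, 2.88, 2.77 and 3.45. Fosb differed by 0.31, -0.06 and 0.44 (0.362), Junb by 0.29, 0.16 and 0.60 (0.894), Atf3 by 0.14, -0.19 and 0.29 (0.637), and Ier2 by 0.14, -0.21 and 0.28 (0.687). Ier3 differed by 0.14, 0.11 and 0.04 (0.997) and Zfp36 by 0.02, -0.11 and 0.16 (0.897). The bright Zfp36 probe had group means of 0.21 in vehicle and 0.41, 0.04 and 0.63 at 18, 54 and 162 µg, a wider span than the damped values. Without the array whose files did not match, the 18 µg difference was 0.64 for Junb, 0.34 for Ier2, 0.31 for Ier3, 0.47 for Dusp1 and 0.05 for Zfp36, each more than 1.5 times its value with it, and 0.31 for Fosb and 0.19 for Atf3.

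**Figure D3:**
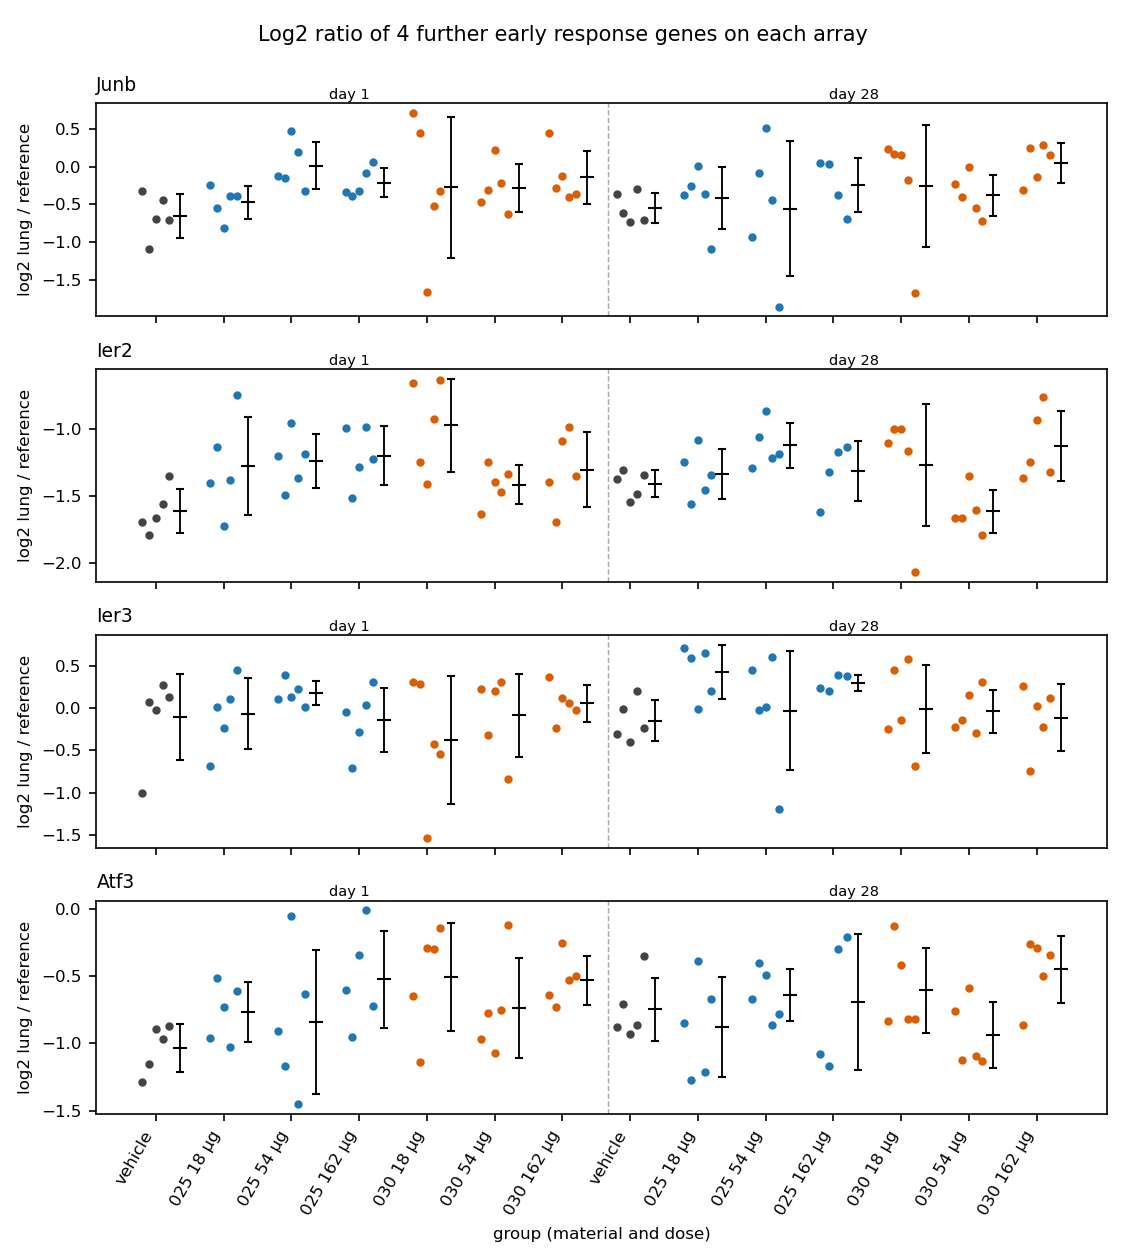
Log2 lung over reference of Junb, Ier2, Ier3 and Atf3 (vertical axes) on each array in the 14 groups (horizontal axis). Points are mice, and the bars are group means ± SD. The lowest Junb and Ier2 points of NRCWE-030 at 18 µg on day 28, -1.68 and -2.07, belong to the array whose 2 deposited files did not match.

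For NRCWE-025 on day 1, all 3 doses were higher than vehicle to a like extent. The median difference over the members was 0.30, 0.42 and 0.43 at 18, 54 and 162 µg, with 10, 10 and 9 of 10 genes higher. Against vehicle, limma called 0 members at 18 µg (0% of all genes), 54 µg (0%) and 162 µg (0.209%), and 4, 7 and 7 had an unadjusted p under 0.05. Egr1 differed by 0.66, 1.01 and 1.00 (SE 0.29, dose effect adjusted p = 0.304), with levels of -1.80, -1.46, -0.44, -1.83 and -1.16 at 54 µg that all lay above the vehicle range. Nr4a1 differed by 0.87, 1.04 and 0.95 (SE 0.32, adjusted p = 0.34). Dusp1 differed by 1.1, 0.87 and 0.83 (SE 0.39, adjusted p = 0.506), and each of its dose groups overlapped with the vehicle range.

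Junb, a Jun family protein of AP-1, had the smallest adjusted p of the dose F-test for this material. It read -0.12, -0.15, 0.47, 0.19 and -0.32 at 54 µg, all above the vehicle mice at -0.33, -1.10, -0.70, -0.45 and -0.71, a difference of 0.67 (SE 0.15, dose effect adjusted p = 0.184). At 162 µg it differed by 0.44 and at 18 µg by 0.18. Against vehicle alone, the smallest adjusted p of a member was 0.144, for Egr1 at 162 µg. Ier2 differed by 0.33, 0.37 and 0.41, Atf3 by 0.26, 0.19 and 0.51, Zfp36 by 0.19, 0.23 and 0.23, and Fos by 0.41, 0.46 and 0.16. The bright Zfp36 probe had group means of 0.34, 0.45 and 0.42, against 0.00 in vehicle. Fosb and Ier3 stayed within 0.29 of vehicle at each dose.

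On day 28, Egr1 and Fos were the members of NRCWE-025 with the largest differences, 0.87, 1.1 and 0.82 for Egr1 and 0.76, 0.89 and 0.59 for Fos at 18, 54 and 162 µg. The vehicle mice spanned -3.19 to -0.69 for Egr1 and -2.40 to -0.49 for Fos, and all but 1 exposed Egr1 value, and all but 3 exposed Fos values, fell within them. Against vehicle, limma called 0 members at 18 µg (0.0589% of all genes), 54 µg (0.0268%) and 162 µg (0.0161%), with 3, 5 and 0 at an unadjusted p under 0.05. The median difference was 0.16, 0.20 and 0.20, with 7, 9 and 8 genes higher. Ier2 at 54 µg, at -1.29, -1.06, -0.86, -1.21 and -1.18, lay above all vehicle mice of that day, a difference of 0.28 (SE 0.11, adjusted p = 0.608). Dusp1 differed by -0.16, 0.10 and -0.02.

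The materials were compared at matched doses, as NRCWE-030 minus NRCWE-025 with the 3 doses of a day in 1 F-test, so that vehicle cancels and 2 such tests were made per gene. On day 1 limma called 0 members (0.155% of all genes) and 2 had an unadjusted p under 0.05, Egr1 and Nr4a1. Egr1 was higher with NRCWE-030 at 18 µg by 0.69 (95% interval 0.02 to 1.36), and lower at 54 µg by a difference of -0.99 (-1.67 to -0.32) and at 162 µg of -0.77 (-1.44 to -0.10), with an adjusted p of 0.177. Nr4a1 differed by 0.59, -0.84 and -0.54 (adjusted p = 0.465), and Dusp1 by 0.16, -0.63 and -0.45 (0.782). The signs at 18 µg and at the higher doses were opposite for these 3 genes, and the Dusp1 interval at 54 µg ran from -1.34 to 0.09.

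On day 28 no member passed between materials. At 54 µg, NRCWE-030 minus NRCWE-025 was -1.33 (95% interval -2.01 to -0.66) for Egr1, -1.22 (-1.89 to -0.54) for Nr4a1, -1.07 (-1.63 to -0.50) for Fos, -0.56 (-0.93 to -0.20) for Fosb and -0.49 (-0.81 to -0.18) for Ier2. The same 5 genes had an unadjusted p under 0.05, and limma called 0 of the 10 after adjustment (0.241% of all genes), the smallest adjusted p being 0.244 for Nr4a1. At 18 and 162 µg Egr1 differed by 0.27 and 0.22, Fos by 0.19 and 0.31, Fosb by 0.11 and 0.37, and Nr4a1 by 0.68 (0.00 to 1.35) and 0.06. Junb (0.18 at 54 µg, -0.42 to 0.78) and Ier3 (-0.01, -0.55 to 0.53) had differences near 0 at that dose, with wide intervals.

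Time was examined in vehicle and at the highest dose. In vehicle mice, day 28 minus day 1 gave 0 called members in limma (0.0375% of all genes) and 0 at an unadjusted p under 0.05, with Nr4a1 at 0.59 (95% interval -0.09 to 1.27) and Dusp1 at 0.52 (-0.19 to 1.24) as the largest. With slide as a fixed block Junb passed (adjusted p = 0.0282), but only 1 slide held arrays of both days, and its day 28 array was the one whose files did not match, so that this value rests on that array. For the 162 µg minus vehicle difference, day 1 minus day 28, limma called 0 members for NRCWE-025 (0.0589% of all genes, 0 at an unadjusted p under 0.05) and 0 for NRCWE-030 (0.198%, 1 at an unadjusted p under 0.05). That 1 was Fos, whose difference for NRCWE-030 was -0.99 (-1.79 to -0.19, adjusted p = 0.473).

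Across the 14 groups, no 2 neighbours in the order of group means were farther apart than the spread between mice for any member. That spread is the SD of single mice, not the error of a group mean, so this does not show that groups were alike. The order of Egr1 ran from -2.51 (NRCWE-030 at 54 µg on day 28) to -1.0 (NRCWE-030 at 18 µg on day 1), with its widest step between neighbours at 0.42 and a spread between mice of 0.55. Nr4a1 ran from -0.56 (vehicle on day 1) to 0.95 (NRCWE-030 at 18 µg on day 28), Dusp1 from 1.44 (NRCWE-030 at 54 µg on day 28) to 2.78 (NRCWE-030 at 18 µg on day 1), and Fos from -1.62 (NRCWE-030 at 54 µg on day 28) to -0.50 (NRCWE-030 at 18 µg on day 28). The lowest group was NRCWE-030 at 54 µg on day 28 for Fos, Fosb, Egr1, Ier2 and Dusp1.

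The members were among the genes that varied most between mice given the same treatment. The SD between mice within a group, from the fit of all 14 groups, was 0.58 for Dusp1, 0.55 for Egr1 and Nr4a1, 0.49 for Junb, 0.46 for Fos and 0.44 for Ier3. Atf3 followed at 0.33, Fosb at 0.30, Ier2 at 0.25 and Zfp36, damped by its dim probe, at 0.16. The median over all genes was 0.17 and the 90th percentile 0.32, and 7 of the 10 members lay above the latter. Dusp1 stood at the 98.9th percentile and Egr1 at the 98.6th.

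**Figure D4:**
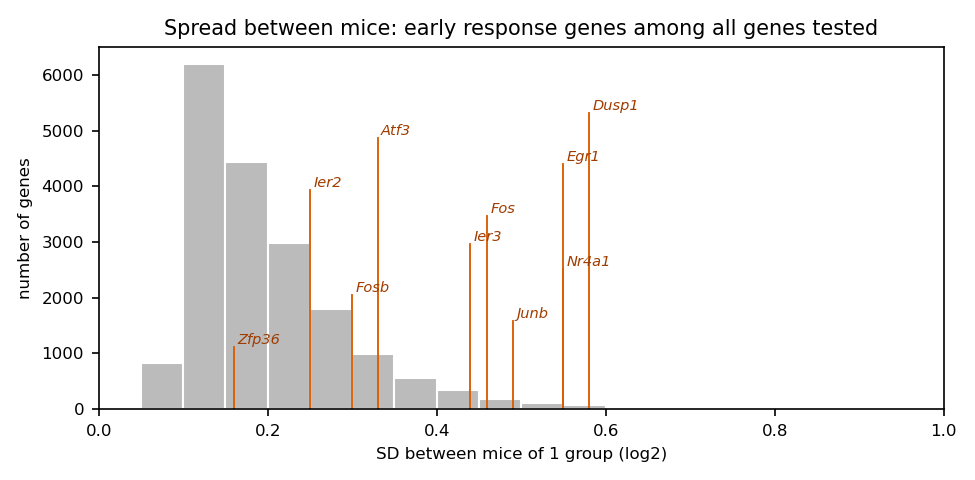
Number of genes (vertical axis) by their SD between mice of 1 group, in log2 units (horizontal axis, shown up to 1), for all 18660 genes, with each early response gene marked by a line at its own SD. The height of a line has no meaning and only spaces the names. Dusp1, at 0.58, lies farthest right, and Zfp36, at 0.16, lies within the bulk.

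This variation was shared between members. Over the 69 arrays with group means removed, 39 of the 45 pairs of members correlated above 0, with a median r of 0.39, and 32 pairs passed a two-sided permutation test within groups (100000 resamples, adjusted over the 45 pairs), all with r above 0. By Spearman's rho 30 pairs passed. Egr1 and Nr4a1 were the closest pair (r = 0.803, rho = 0.815, permutation p = 1e-05, the smallest the resamples can give, adjusted p = 7.5e-05), and r was 0.776 without the 2 farthest arrays, 0.817 with scan day removed and 0.79 with slide removed. Without the array whose files did not match, it was 0.788 and the median over pairs 0.388. Fos followed Egr1 at 0.72, Nr4a1 followed Ier2 at 0.713, and Dusp1 followed Zfp36 at 0.648. Of the 32 pairs, 28 also passed without the 2 farthest arrays, 32 with scan day removed and 29 with slide removed. The 2 genes of a pair are read on the same array against the same reference RNA, which a correlation across arrays includes.

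Ier3 was the exception when only group means were removed. It passed with 1 partner only, Junb (r = 0.473), which did not pass by rho (adjusted p = 0.109), and its mean r with the other members was 0.108. Its correlation with Dusp1 was -0.0273, with Zfp36 -0.13 and with Atf3 -0.142. With slide removed as well, Ier3 stood less apart. Its r was then 0.433 with Fosb (-0.0417 before), 0.432 with Junb, 0.345 with Nr4a1, and 0.337 with both Egr1 and Ier2. It stayed lower with Fos (0.196), Zfp36 (0.109), Dusp1 (0.0642) and Atf3 (0.0471). Junb shared more with Fos (0.518), Ier3 and Ier2 than with Fosb, Atf3 or Zfp36, where r was between -0.052 and 0.056. This split was weaker with slide removed, where r of Junb was 0.485 with Fos, 0.468 with Fosb, 0.322 with Atf3 and 0.0708 with Zfp36. Egr1, Nr4a1 and Ier2 each passed with 8 of 9 partners.

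**Figure D5:**
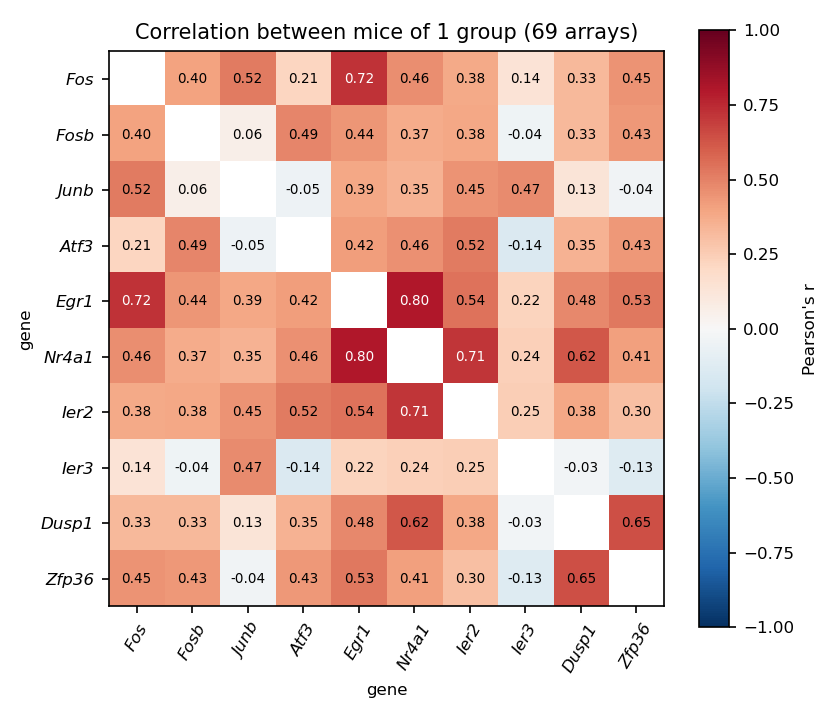
Pearson's r between each pair of the 10 genes over 69 arrays after the mean of each group was removed. Red is above 0 and blue below. Egr1 and Nr4a1 share the darkest cell, 0.803, and the Ier3 row stays pale except for Junb, at 0.473.

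The non-member genes whose variation between mice was most like the mean of the members were Ccn1 (r = 0.732 over 69 arrays) and Btg2 (0.72), followed by Ndufaf7 (0.595), Srsf5 (0.572), Ppp1r15a (0.563), Pim3 (0.559), Errfi1 (0.55), Srrm2 (0.542), 1110004F10Rik (0.516) and Fra10ac1 (0.515). In a list of other early response genes, 44 of 45 were tested, and their median r with the members was 0.143 against -0.00166 over all genes. Of the 44, 7 were above 0.4, compared with 0.858% of all genes. The lowest was Ier5l at -0.463. No gene of the clock, heart muscle, fat, neutrophil or other marker lists reached 0.4. At the share of 0.858% over all genes, lists this short would hold few such genes or none, so their absence does not set these lists apart. In those lists the median r ran from -0.154 for heart muscle to 0.162 for endothelium, with core clock genes at 0.138. The 21 upstream signalling genes had a median r of 0.0296, from -0.339 for Mrtfb to 0.328 for Srf, which encodes serum response factor.

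The other early response genes were shifted with the members at 18 µg of NRCWE-030 on day 1, with 37 of 44 higher and a median of 0.26 (50% of all genes higher), but 0 were called against vehicle. At 54 and 162 µg, 30 and 26 of 44 were higher, with medians of 0.12 and 0.09 (47.7% and 51.3% of all genes higher). Against the same vehicle mice, NRCWE-025 on day 1 gave 34, 34 and 36 of 44 higher at 18, 54 and 162 µg, with medians of 0.15, 0.26 and 0.26 (45.4%, 47.3% and 50% of all genes higher). For NRCWE-030 on day 1, the dose effect passed for 3 of 44, Ccn1, Plk3 and Nfkbiz (0.954% of all genes passed). At 162 µg of NRCWE-030 on that day, 4 of 44 rose against vehicle (1.69% of all genes called). They were Dusp6 at 0.79 (adjusted p = 0.0379), Nfkbiz at 0.65 (0.0107), Plk3 at 0.63 (0.0312) and Npas4 at 0.31 (0.0306). Npas4 was well above background on only 2 arrays. With NRCWE-025 at 162 µg on day 1, Gadd45b fell by 0.64 (adjusted p = 0.035), the 1 of 44 called. None was called in the other 10 comparisons with vehicle. Crem, which encodes a cAMP-responsive factor and is on the upstream list, was higher in vehicle on day 28 than on day 1 by 0.71 (adjusted p = 0.0142).

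For NRCWE-030 on day 1, the inflammatory genes followed another order of doses than the members. At 162 µg, 4 of 10 cytokine genes with AU-rich mRNAs rose against vehicle (1.69% of all genes called). They were Ccl2 by 2.09, Ccl3 by 1.28, Il1b by 1.27 and Il6 by 1.21 (adjusted p 0.0154 to 0.0371). The median difference of the 10 was 0.24, 0.45 and 0.99 at 18, 54 and 162 µg, whereas those of the members were 0.58, 0.13 and 0.27. For NRCWE-025 on day 1 both were lowest at 18 µg. The cytokine medians were -0.03, 0.51 and 0.62, and those of the members 0.30, 0.42 and 0.43. Of the 10 cytokine genes, Cxcl2, Csf3 and Il10 were well above background on only 4, 3 and 8 arrays. Of 7 neutrophil markers, 5 were higher than vehicle at 162 µg of NRCWE-030 on day 1, with a median difference of 0.35. Only Il1r2 (1.36) and Csf3r (1.25) passed there. At 18 µg 3 of 7 were higher, with a median of -0.03, and 0 passed. The mean level of the neutrophil list was 1.64 to 2.13 in vehicle, 1.68 to 2.13 at 18 µg and 2.13 to 2.79 at 162 µg, and each of its 7 markers but 1 was well above background on all arrays. At 18 µg, where Egr1, Nr4a1 and Dusp1 were highest, the neutrophil list had the range of the vehicle mice. On day 28 its mean level was 1.75 to 3.02 in vehicle and 1.88 to 2.38, 1.81 to 1.92 and 1.59 to 1.97 at 18, 54 and 162 µg. The part of neutrophil number in the early response values was not tested.

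Clock genes also differed between the groups. The mean level of 15 core clock genes was -0.16 to 0.43 in vehicle on day 1. It was 0.26 to 0.38 at 18 µg, 0.27 to 0.41 at 54 µg and 0.20 to 0.43 at 162 µg of NRCWE-030. The dose F-test of that day passed for 2 of 15, Dbp and Bhlhe40 (0.954% of all genes). On day 28 it passed for 4, Arntl, Per2, Nr1d2 and Dbp (0.102%). Between materials, 3 of 15 passed on day 1 (0.155%) and 7 on day 28 (0.241%). At 162 µg of NRCWE-030 on day 1, Dbp was higher by 1.79 (adjusted p = 0.0215) and Arntl lower by a difference of -1.51 (0.0188). The mean over the list can hide such changes of opposite sign. On day 28 Dbp was higher by 2.11 at 54 µg and 2.27 at 162 µg, doses at which Egr1 differed by -0.24 and 1.04. Heart muscle markers on day 1 ranged from 0.80 to 4.94 in vehicle and from 0.38 to 4.05 at 18 µg of NRCWE-030, and fat markers from 1.90 to 4.74 and from 1.23 to 3.40. On day 28 heart muscle markers ranged from 1.47 to 3.55 in vehicle and from 0.68 to 2.13 at 18 µg of NRCWE-030, where 0 of 7 were higher, the median difference was -1.81 and none was called. Of 11 heat shock and cold-inducible genes, Cirbp was higher than vehicle by 0.98 there (adjusted p = 0.0087). Hspa8 (a difference of -1.02, adjusted p = 0.0202) and Hsph1 (-1.25, 0.0365) were lower. For NRCWE-025 on day 28 Cirbp was higher by 0.78, 0.76 and 0.87 at 18, 54 and 162 µg, and Hspa8 was lower by 0.99 at 54 µg and 1.06 at 162 µg. All of these differences are against the same 5 vehicle mice, so they are not separate observations. The mean of the list was -0.15 in those mice and -0.44 in vehicle on day 1. In the exposed groups of day 28 it lay between -0.57 and -0.36. The part of clock phase, temperature-responsive genes or tissue composition in the early response values was not tested.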

How the data were processed

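RNA from a section of lung of each mouse had been labelled with Cy5 and hybridised with Cy3-labelled reference RNA on 2-colour Agilent arrays. Per the file headers, the deposited scanner files hold spot intensity values, local backgrounds, quality flags and a log10 ratio from Agilent Feature Extraction 11.0.1.1. The deposited value table holds log2 ratios that the authors had normalised by LOWESS within each array.

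Here, intensities were background-corrected with normexp (offset 50), after backgrounds marked as outliers were replaced by the array median, and normalised by loess within arrays in limma 3.58.1 (R 4.3.3). Control spots and outlier spots were left out. Spots were summarised by the median per probe and probes by the median per RefSeq symbol. Of 41174 probes, 27484 (66.8%) had a symbol. They gave 18753 symbols, of which 93 with a missing value were left out. Each material and day was fitted with its vehicle group (F-test over doses, then each dose against vehicle). Materials and days were compared in a fit of all 14 groups. P-values were moderated by limma and adjusted by Benjamini-Hochberg over all genes at 0.05. The number of mice limits the precision. The computations were tested on simulated data. The members and gene lists were chosen with earlier results of these data known, and all 10 members were described. Likeness to the mean of the members named the 10 closest genes. Alternatives covered background correction, the scanner log ratio, the deposited log2 table, scaling between arrays, dim genes, probe choice, slide and scan day as blocks, the variance prior and leaving out each mouse.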

Additional observations from a re-analysis of the deposited data

Results flagged for a closer look

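Within the groups of 4 or 5 arrays, 8 of 140 sets of values of a gene in a group held an array far from the others by Dixon's test, and chance alone gives about 1 in 20, or 7. For Fos they were replicate 3 of NRCWE-025 at 18 µg on day 28 (-0.27, against a median of -0.79 for the others), replicate 4 of NRCWE-030 at 162 µg on day 28 (-0.09 against -0.67) and replicate 2 of NRCWE-030 at 54 µg on day 28 (-2.41 against -1.43). The last of these arrays was also low for Fosb (-2.17 against -1.51). Replicate 5 of NRCWE-030 at 18 µg on day 28, the array whose scanner file and table column did not match, was low for Junb (-1.68 against 0.16) and Ier2 (-2.07 against -1.05). The remaining 2 were Ier3 in vehicle replicate 1 on day 1 (-1.0 against 0.10) and Zfp36 in replicate 2 of NRCWE-025 at 162 µg on day 1 (-0.05 against 0.31).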

How the results depend on the processing

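For NRCWE-030 on day 1, 3 members passed the dose F-test, and the count was 1 with the scanner log ratio (Nr4a1), 1 with slide as a fixed block and 1 with scan day as a fixed block (Dusp1 both times). With the brightest probe of each gene Dusp1 alone was lost (adjusted p = 0.057). The count was 1 to 3 when 1 mouse was left out, and 1 without vehicle replicate 2 or 18 µg replicate 1, 4 or 5. Against vehicle the count was 0, but 1 with scan day as a fixed block (Dusp1, adjusted p = 0.0457), and 0 to 1 with 1 mouse left out: 1 without vehicle replicate 3 (Dusp1, 0.0113) or 18 µg replicate 3 (Nr4a1, 0.00293). For the dose effect of NRCWE-030 on day 28 the count of 0 became 1 on the deposited table, 2 where slide entered as a random block (Fos and Nr4a1), 1 where it entered as a fixed block, and 0 to 1 with 1 mouse left out (1 without 18 µg replicate 5). Between vehicle days it became 1 with slide as a fixed block, a value that rests on the array whose files did not match. The cause of these changes was not tested. The differences that turned sign were 3 values: Zfp36 at 162 µg of NRCWE-025 on day 28, -0.05, was 0.04 with the scanner log ratio and 0.08 with the brightest probe, and Fosb at 18 µg of NRCWE-030 on day 1, 0.17, was -0.09 with scan day as a fixed block. Over the alternatives other than leaving out a mouse, 426 single-gene values kept direction and side of the threshold, 4 newly passed and 7 no longer passed. No paired analysis was possible because the number in a sample's name runs over the whole series and pairs no mice. Mice that shared a slide were compared through the slide blocks. Group size and the match of the files of 1 array limit these results.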
